A study of Homo sapiens with 8 samples.

Results

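The proteasome subunit genes PSMB4 and PSMD4 lie close together on chromosome 1, and the counts described here are those of the 3 features of the deposited gene table whose exon intervals overlap the positions that the GRCh38 assembly gives these 2 genes. The 2 genes were chosen with earlier results of these data known. The features were then taken by position, as intervals that overlap chr1:151399500-151402000 (PSMB4) or chr1:151254600-151267500 (PSMD4). They are 3 of the 63568 features of the table, and the table names them POGZ, ZNF687 and PI4KB, because its annotation is of the older hg19 build. POGZ and ZNF687 are nuclear zinc finger proteins, and PI4KB is a phosphatidylinositol 4-kinase of the Golgi. Each feature is called below by its name in the table, as row POGZ, row ZNF687 or row PI4KB.

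RNA was sequenced in 8 libraries from HEK 293T, a human embryonic kidney cell line, and from the microvesicles that the cells release into their medium. TRACE cultures were transfected with GFP-C-YTHDF1 and GBP1-CD9, and control cultures with GFP and GBP1-CD9, so that both carried GFP, the CD9 fusion and the transfection reagent, lipofectamine 3000, and differed by the YTHDF1 part. YTHDF1 binds messenger RNA that carries N6-methyladenosine, and the tetraspanin CD9 sits in vesicle membranes. All cultures grew in medium with 10% exosome-depleted serum and RNase A at 30 µg/mL, microvesicles were collected by ultracentrifugation with a 0.8 µm filter, and the 4 groups of 2 libraries were TRACE cells and TRACE microvesicles (numerals II and III) and control cells and control microvesicles (numerals I and II).

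The proteasome degrades proteins that carry ubiquitin chains. Its barrel-shaped core particle holds the proteolytic sites, and its regulatory particle recognises the chains, unfolds the substrate and feeds it into the core. PSMB4 encodes a non-catalytic beta subunit of the core. PSMD4, also known as Rpn10 or S5a, encodes a ubiquitin receptor of the regulatory particle. Both are housekeeping genes, and their messenger RNAs are abundant in growing cell lines.

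The library totals ranged from 34602 counts (TRACE microvesicles II) to 479140 (control microvesicles II), and the 4 cell libraries held 42950 to 163157. All TRACE totals (at most 64025) were below all control totals (at least 109099), so depth and construct cannot be told apart. Every count lay on chromosome 1, so the cell line was not checked against markers on other chromosomes. A pair of other features, LINC01128 and TP53BP2, held 11.7% and 28.2% of the count of the TRACE microvesicle libraries, 41.8% and 68.5% of the control microvesicle libraries, and at most 0.0978% of any cell library. Shares of library count are therefore also given without these 2 features where they bear on a result. The labels do not say whether the libraries of a group came from separate cultures, so p-values reflect only how far these libraries spread, and that spread may be technical. Intervals on shares are 95% Clopper-Pearson intervals and cover counting error only. They treat all counts of the summed R1 and R2 columns as independent. What these columns are is not stated, and the intervals are too narrow if both count the same fragments.

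Row POGZ (ENSG00000143442.17, minus strand, hg19 interval chr1:151375200-151431941) had 10272 nt of exon sequence, of which 1515 nt (14.7%) lay inside the PSMB4 span. These 1515 nt covered 60.6% of that span and belonged to 7 of the row's 57 distinct exons. By the gene positions of RefSeq on GRCh38, 13.7% of the exon sequence of row POGZ fell on POGZ itself. Row ZNF687 (ENSG00000143373.13, plus strand, chr1:151254094-151264656) had 92.7% of its 6349 exonic nt inside the PSMD4 span, in 23 of 24 distinct exons. Row PI4KB (ENSG00000143393.12, minus strand, chr1:151264273-151300191) had 35.8% of its 5456 exonic nt there, in 13 of 41 distinct exons. A further 982 nt of row PI4KB fell on the GRCh38 position of ZNF687 and 820 nt on that of PI4KB. One number is reported per row, so counts could not be divided by exon, and the files do not show which exon or which gene the reads of a row came from. The table's annotation and the build named for the alignment are both hg19, on which these counts are of POGZ, ZNF687 and PI4KB. They bear on PSMB4 and PSMD4 only if read positions were those of GRCh38, which was not tested, since no reads were used here. The map of exon intervals shows how unequally the spans were covered.

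**Figure D1:**
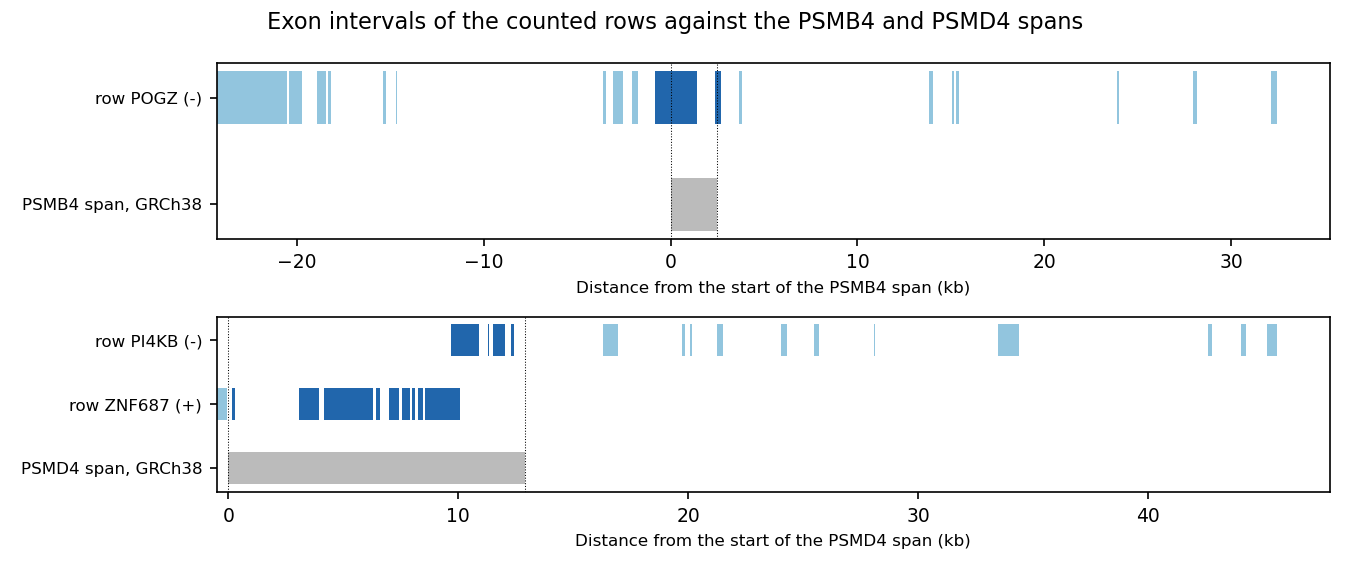
Exon intervals of the 3 rows, drawn to scale as distance in kb from the start of the PSMB4 span (upper panel) or the PSMD4 span (lower panel), with the strand of the row in brackets. Grey bars are the spans on GRCh38 and blue bars the exon intervals of the table, dark where an interval overlaps the span; row ZNF687 lies almost wholly in the PSMD4 span, and row POGZ mostly outside the PSMB4 span.

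The rows that carry the proteasome symbols themselves lay elsewhere and held few counts. The row named PSMB4 (chr1:151372010-151374420) had 24 counts over all 8 libraries, and its interval overlaps SELENBP1 on GRCh38. The row named PSMD4 (chr1:151227179-151239955) had 492 counts, and its interval overlaps PIP5K1A. Against these, row POGZ held 6680 counts, row ZNF687 2366 and row PI4KB 7789. For both genes the rows at the GRCh38 position held more counts than the row of that name, but the genes were chosen with earlier results known. The counts are also of whole rows, with 14.7% (POGZ), 92.7% (ZNF687) and 35.8% (PI4KB) of their exon sequence in the spans.

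At the PSMB4 position the cell libraries were nearly alike. Row POGZ held 1.53% and 1.45% of the count of TRACE cells II and III, and 1.51% and 1.48% of control cells I and II, from 656, 848, 1650 and 2421 counts. The intervals of all 4 overlap, the lowest being 1.35% to 1.55% and the highest 1.41% to 1.65%, and the coefficient of variation over the 4 libraries was 2.41%. Row POGZ ranked 10th or 11th by count among the features of chromosome 1 in each cell library. Microvesicle libraries spread far more: row POGZ held 0.610% and 0.472% of TRACE microvesicles II and III and 0.0570% and 0.0952% of control microvesicles I and II, from 211, 302, 136 and 456 counts. Both TRACE microvesicle libraries were above both control ones, and all 4 were below every cell library.

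At the PSMD4 position, row ZNF687, nearly all of which lies in the span, was the least abundant of the 3 rows in cells. It held 0.403% and 0.452% of TRACE cells II and III, and 0.478% and 0.634% of control cells I and II, from 173, 265, 521 and 1035 counts. Control cells II stood above the other cell libraries, and the coefficient of variation was 20.4%. In microvesicles the row held 0.243% and 0.119% of TRACE libraries II and III, and 0.0705% and 0.00918% of control libraries I and II, from 84, 76, 168 and 44 counts. Both TRACE libraries were above both control ones, and all 4 were below every cell library. The 44 counts of control microvesicles II leave an interval of 0.00667% to 0.0123%.

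Row PI4KB, which shares the PSMD4 position, was the most abundant in cells. It held 1.68% and 1.54% of TRACE cells II and III, and 1.74% and 1.95% of control cells I and II, from 723, 901, 1902 and 3183 counts, and ranked 8th or 9th in each. In microvesicles it held 1.16% and 0.400% of TRACE libraries II and III, and 0.141% and 0.0175% of control libraries I and II, from 403, 256, 337 and 84 counts. The order of the libraries was the same as for row ZNF687 in microvesicles, with TRACE II highest and control II lowest. Row POGZ differed there, since control II was the higher of its control libraries.

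Per kilobase of exon, in CPM per kb over the whole row, row PI4KB was the densest of the 3 rows in every cell library. The order need not hold for the parts inside the spans, 1515 nt of row POGZ and 1953 nt of row PI4KB. Row PI4KB had 2950 ± 191 in TRACE cells and 3386 ± 269 in control cells (SD, n = 2). Row POGZ had 1447 ± 56.3 and 1458 ± 19.6, and row ZNF687 had 673 ± 54.5 and 876 ± 175. In microvesicles the same densities were 1434 ± 991 (TRACE) and 146 ± 160 (control) for row PI4KB, 526 ± 95.1 and 74.1 ± 26.2 for row POGZ, and 285 ± 138 and 62.7 ± 68.3 for row ZNF687. The order PI4KB, POGZ, ZNF687 of the cells was also that of both TRACE microvesicle libraries, while row POGZ was the least dense in control microvesicles I and the densest in control microvesicles II.

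**Figure D2:**
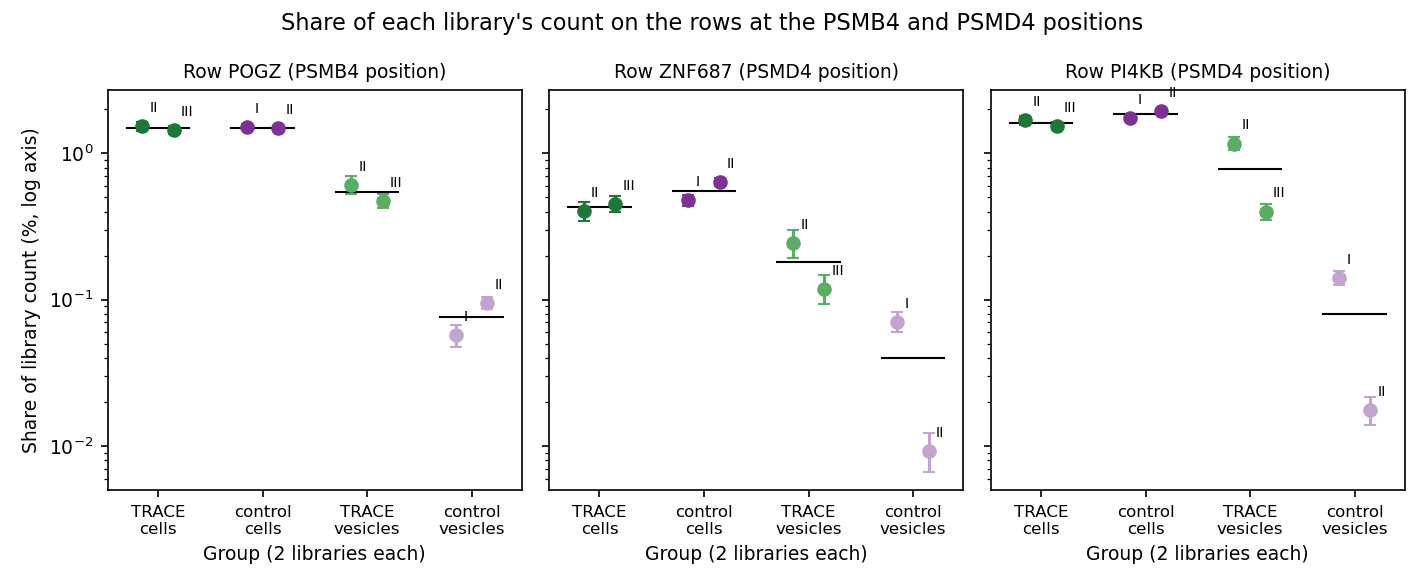
Share of the library count (percent, log axis) on each of the 3 rows in the 8 libraries; points are libraries with their numeral, bars are 95% exact intervals for counting error, and black lines are means of the 2 libraries. The cell libraries sit close together, and for each row both TRACE microvesicle libraries lie above both control microvesicle libraries.

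The study's main comparison is of TRACE with control microvesicles, the RNA released with and without the YTHDF1 part. Rows POGZ, ZNF687 and PI4KB had mean shares of 0.541% ± 0.0977, 0.181% ± 0.0877 and 0.782% ± 0.541 in TRACE microvesicles, against 0.0761% ± 0.0270, 0.0398% ± 0.0433 and 0.0794% ± 0.0876 in control microvesicles (SD, n = 2). The TRACE libraries lay above the control ones without overlap for all 3 rows, as they did for 23.1% of the 1113 features tested. The edgeR quasi-likelihood test with Benjamini-Hochberg adjustment over these features called 0 of the 3 rows, against 4.76% of features called higher and 6.2% called in either direction. The log2 fold changes were 1.79 ± 0.83 for row POGZ (SE; adjusted p = 0.222), 1.77 ± 0.88 for row ZNF687 (adjusted p = 0.253) and 2.92 ± 0.96 for row PI4KB (adjusted p = 0.100). Unadjusted p-values were 0.0552, 0.0703 and 0.0120. The 95% intervals of the log2 fold change ran from -0.05 to 3.63, from -0.18 to 3.72 and from 0.80 to 5.05.

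These values lean on single libraries. The log2 fold change of row PI4KB became 4.23 (adjusted p = 0.0427) without control microvesicles I, 3.95 (adjusted p = 0.0297) without TRACE microvesicles III and 1.84 without TRACE microvesicles II, and DESeq2 gave 3.23 with an adjusted p of 0.00919. Scaling by library size alone gave row POGZ 2.83 with an adjusted p of 0.0471; without control microvesicles I its value was 1.18, and without control microvesicles II 3.12. The value of row ZNF687 was 1.08 without TRACE microvesicles II, 2.67 without TRACE microvesicles III and 3.0 without control microvesicles I. With only the microvesicle libraries in the fit, 0 features of the table were called. After leaving LINC01128 and TP53BP2 out of the totals, row POGZ had a share of 0.674% ± 0.0236 in TRACE and 0.20% ± 0.144 in control microvesicles (SD, n = 2). Row ZNF687 then had 0.22% ± 0.0774 and 0.0751% ± 0.0650, and row PI4KB 0.938% ± 0.539 and 0.149% ± 0.132, so the control means of all 3 rows moved by more than the TRACE means in proportion.

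In the cells themselves no row was called between the constructs. The log2 fold changes of TRACE against control cells were -0.31 ± 0.80 for row POGZ, -0.68 ± 0.85 for row ZNF687 and -0.51 ± 0.89 for row PI4KB, with adjusted p-values of 1 by the edgeR test. That test called 0% of the 1113 features in this comparison, 10 had an unadjusted p under 0.05, and DESeq2 and limma-voom also called 0. Control cells II had the highest share of rows ZNF687 and PI4KB, and for these 2 rows both control libraries were above both TRACE libraries, as for 18% of features. The 95% intervals of the 3 rows were wide, from -2.09 to 1.47 for POGZ, from -2.57 to 1.20 for ZNF687 and from -2.49 to 1.47 for PI4KB.

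Microvesicles held smaller shares of the 3 rows than the cells they came from. All 4 microvesicle libraries were below all 4 cell libraries for each of the 3 rows, which was so for 23.5% of the features tested. In control cultures the edgeR test called all 3 rows lower in microvesicles, where it called 20.8% of features lower and 36.6% in either direction. The log2 fold changes were -3.57 ± 0.88 for row POGZ (11.9-fold lower; adjusted p = 0.0151), -3.68 ± 0.94 for row ZNF687 (12.8-fold lower; adjusted p = 0.0167) and -4.42 ± 1.02 for row PI4KB (21.4-fold lower; adjusted p = 0.0117). The median over all features tested was 0.39. Such libraries give shares only, and show neither the RNA per vesicle nor the number of vesicles. A share is also lower where other features hold more of the library. LINC01128 and TP53BP2 held 41.8% and 68.5% of control microvesicles I and II, and ratios without them are given below.

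The 3 control calls depended on the cell libraries. Leaving out any 1 of the 4 cell libraries ended them, with adjusted p-values of 0.0503 to 0.140 over the 3 rows. With the same 1113 features kept, they held without either TRACE cell library (adjusted p-values of 0.0351 to 0.0456) and ended without control cells I or II (0.0537 to 0.107). Without control microvesicles II the value of row POGZ was -5.18, and without control microvesicles I those of rows ZNF687 and PI4KB were -5.10 and -5.90. Without TRACE microvesicles III the latter were -4.34 and -5.08. Under upper-quartile scaling the 3 values were -2.90, -2.98 and -3.72, all called.

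In TRACE cultures the same comparison gave smaller values, none called. The log2 fold changes of microvesicles against cells were -1.46 ± 0.82 for row POGZ (adjusted p = 0.255), -1.23 ± 0.86 for row ZNF687 (adjusted p = 0.354) and -0.99 ± 0.90 for row PI4KB (adjusted p = 0.458), where the edgeR test called 4.22% of features lower and 5.21% in either direction. The median of all features was 0.38. Without TRACE microvesicles II, the values were -2.39, -2.58 and -2.75. The difference between the TRACE and the control value was tested directly as the interaction of compartment and construct. It was 2.10 ± 1.14 for row POGZ (adjusted p = 0.449), 2.45 ± 1.22 for row ZNF687 (adjusted p = 0.412) and 3.43 ± 1.29 for row PI4KB (adjusted p = 0.266), so that 0 of the 3 rows were called, beside 1.8% of all features in either direction.

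**Figure D3:**
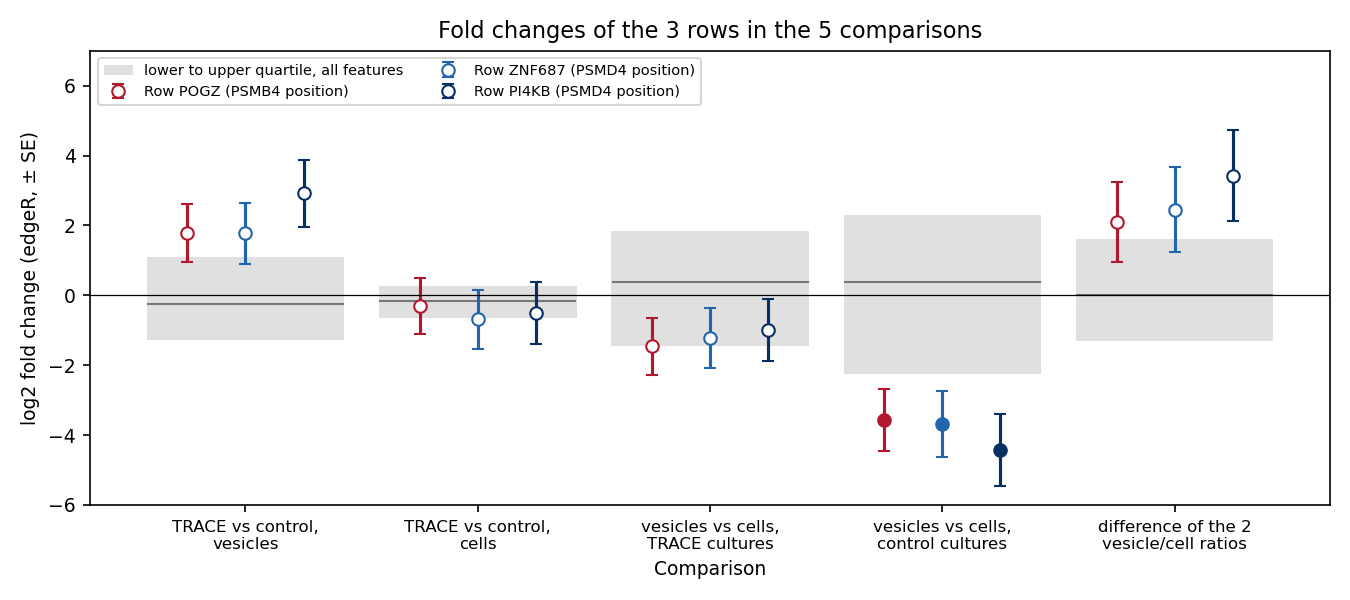
Log2 fold change of the 3 rows in the 5 comparisons (points with SE from edgeR; filled points passed an adjusted p of 0.05). Grey boxes run from the lower to the upper quartile of all 1113 features tested, with the median as a line; the 3 filled points are those of microvesicles against cells in control cultures, and lie below the box.

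Cell and microvesicle libraries of the same construct and numeral were also set side by side, since the series text ties microvesicles to the lysate of the same sample, although their deviations from the group means did not correlate (-0.0318 and 0.0215 over 1113 features). The share of row POGZ was 2.50-fold and 3.06-fold higher in cells for TRACE numerals II and III, against 26.5-fold and 15.6-fold for control numerals I and II. Row ZNF687 was 1.66-fold and 3.81-fold higher with TRACE, and 6.78-fold and 69.1-fold in controls. Row PI4KB was 1.45-fold and 3.84-fold higher with TRACE, and 12.3-fold and 111-fold in controls. Both control ratios were above both TRACE ratios for each row. Without LINC01128 and TP53BP2 the ratios of row POGZ were 2.21, 2.20, 15.4 and 4.92 in the same order, those of row ZNF687 1.47, 2.73, 3.95 and 21.8, and those of row PI4KB 1.28, 2.76, 7.18 and 35.1. Control ratios were above TRACE ratios for each row in this form too. With 2 ratios a construct, they were given no test of their own. The share of all features whose ratios separate in this way is not given here. For the microvesicle shares alone, TRACE lay above control without overlap for 23.1% of features.

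The proportions of the rows to each other varied less over the cell libraries than over the microvesicle libraries. The ratio of row PI4KB to row ZNF687, which both lie at the PSMD4 position, was 4.18 and 3.40 in TRACE cells and 3.65 and 3.08 in control cells. In microvesicles it was 4.80 and 3.37 with TRACE and 2.01 and 1.91 in controls. The ratio of row POGZ to the sum of both PSMD4 rows was 0.732, 0.727, 0.681 and 0.574 in the 4 cell libraries, and 0.433, 0.910, 0.269 and 3.56 in TRACE microvesicles II and III and control microvesicles I and II. Control microvesicles II, with the largest total and 68.5% of it on LINC01128 and TP53BP2, stood apart from the other 7 libraries in this ratio.

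**Figure D4:**
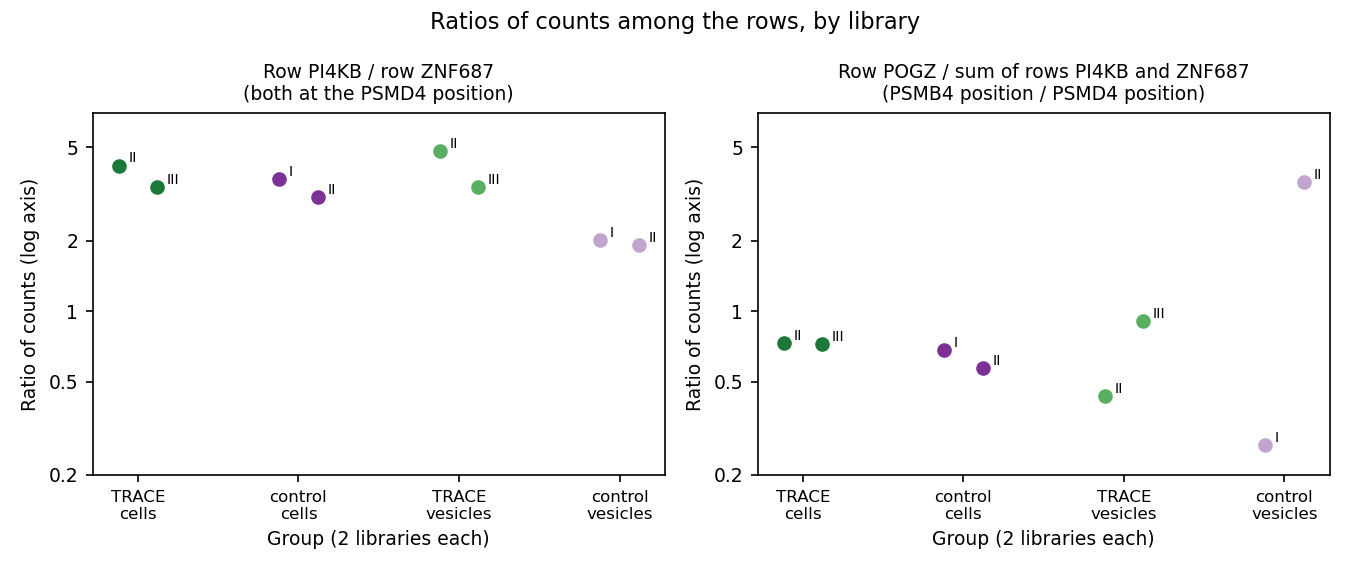
Ratios of counts between rows in each library (log axis; points are libraries with their numeral), for row PI4KB over row ZNF687 (left) and for row POGZ over the sum of the 2 PSMD4 rows (right). The left ratio lies between 3.08 and 4.18 in cells, and the right ratio spreads from 0.269 to 3.56 in microvesicles.

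The 2 columns of each library, named R1 and R2, divided the counts of row PI4KB unequally in the 4 cell libraries. R1 held 59.8% and 58.7% of its counts in TRACE cells and 57.3% and 55.8% in control cells, while R1 held 51.0% to 52.1% of all counts in these libraries. The lower limits of the 95% intervals for row PI4KB, 54.0% to 56.1%, all lay above these library values. Row POGZ (49.8% to 52.0%) and row ZNF687 (46.8% to 53.2%) had R1 shares near those of their libraries in cells. In microvesicles R1 held 58.3% and 56.2% of the counts of row PI4KB with TRACE, and 49.6% and 58.3% in control libraries I and II, so the split of control microvesicles I was near equal. With R1 alone, row PI4KB held a mean of 1.84% of TRACE and 2.03% of control cell counts, and with R2 alone 1.36% and 1.66%. The sources used here do not say what R1 and R2 are, so the intervals hold only if their counts are independent. The cause of the imbalance was not tested.

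**Figure D5:**
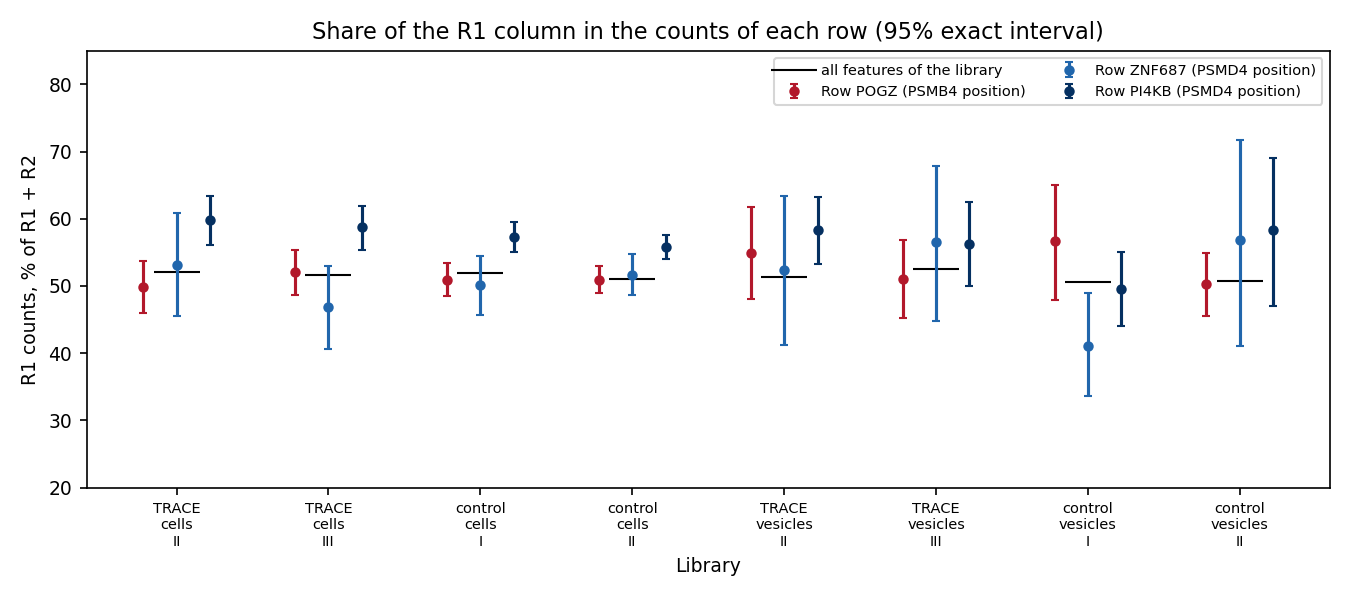
Share of R1 in the R1 plus R2 counts of the 3 rows (points with 95% exact intervals for counting error) and of all features (black bars) in each of the 8 libraries; the axis starts at 20%. Row PI4KB lies above the library value in the 4 cell libraries.

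The features whose pattern over the 8 libraries was most like that of a row were found by the Pearson correlation of log2 CPM, as a description over libraries that share group, depth and culture. For row POGZ the 5 highest among 1110 other features were FOXD3 (0.994), THEMIS2 (0.981), TCEA3 (0.976), ADAMTS4 (0.972) and CLCA4 (0.968). For row ZNF687 they included ZBTB37 (0.990), LIN9 (0.980), CFAP141 (0.980) and VAMP4 (0.979), beside 1 pseudogene. For row PI4KB they included ZBTB37 (0.990), ADIPOR1 (0.983) and ILF2 (0.976), beside 1 pseudogene and 1 feature without a symbol. The rows of the PSMD4 position correlated with each other at 0.986, and row POGZ with them at 0.830 (row ZNF687) and 0.846 (row PI4KB). Rows POGZ, ZNF687 and PI4KB correlated above 0.9 with 46, 51 and 58 features, so a high value is common here. All these names are those of the table, at hg19 positions.

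Proteasome genes of chromosome 1 besides these are PSMA5 and PSMB2, of the core, and UCHL5, a deubiquitinase bound to the regulatory particle. At their GRCh38 positions 7 further rows were found, for PSMA5 and UCHL5 and none for PSMB2, and 5 of them were tested. At the PSMA5 position, rows AKNAD1 and GPSM2 had 90 and 224 counts and neither passed in any comparison. At the UCHL5 position, the row named UCHL5 (90, 162, 245 and 304 counts in TRACE cells II and III and control cells I and II; 39, 8, 17 and 26 in the microvesicles in the same order) had a log2 fold change of -4.48 ± 1.14 in control microvesicles against cells (adjusted p = 0.0167 by edgeR). This call held without 3 of the 8 libraries, each left out in turn, and reached an adjusted p of 0.113. Only 16.8% of its exon sequence lies at the UCHL5 position. Row RO60, of which 95.6% does, had a log2 fold change of -1.92 ± 1.26 there (adjusted p = 0.233), and held 677 counts in control microvesicles II against 44 in control microvesicles I. A row without a symbol, ENSG00000272579.1, has only 11.7% of its exon sequence at the UCHL5 position. It had 18 to 73 counts in the cell libraries, 1 count in control microvesicles II and 0 in the other microvesicle libraries. This row was called lower in both kinds of culture. The call held without 6 of the 8 libraries left out in turn in control cultures and 2 in TRACE cultures. Of the 5 tested rows besides the 3 members, 2 were thus called lower in control cultures, 1 in TRACE cultures and 0 in the comparisons of constructs, where 20.8% of all features were lower in control and 4.22% in TRACE cultures, and 4.76% higher between the microvesicles. With the rows of a gene summed and PSMB2 at 0, the 5 genes had a median of 4219 counts by position, against 90 by symbol. These medians include the 2 member genes, which were chosen with earlier results known, and set 10 rows against 5. For ubiquitin conjugation they were 477 and 115, for deubiquitination 508.5 and 115.5, and for ubiquitin shuttles and adaptors 448.5 and 370.5. These set 125, 24 and 31 rows by position against 42, 9 and 6 genes with a row by symbol, which raises the medians by position. The comparison thus does not show which build the reads were placed on.

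Ubiquitin conjugation, the step that marks substrates, was represented at its GRCh38 positions by 55 tested rows. In TRACE against control microvesicles 4 were called higher and 0 lower: INTS11 at the UBE2J2 position (log2 fold change 4.93 ± 0.87), HIPK1-AS1 at TRIM33 (4.53 ± 1.07), ADIPOR1 at KLHL12 (4.60 ± 1.19) and GPR89A at RNF115 (3.68 ± 0.83). Of the exon sequence of these rows, 38.0%, 100%, 100% and 90.3% lay at the positions named, in the same order. Of all features 4.76% were called higher in this comparison. The adjusted p-values of these 4 were 0.0134 to 0.0495 by edgeR, and with each of the 8 libraries left out in turn the calls held without 4, 1, 2 and 2 of them. In control microvesicles against cells, 4 of the 55 rows were called higher and 8 lower, where 15.7% of all features were called higher and 20.8% lower. The median over the 55 rows was -0.47 in TRACE against control microvesicles, where the median of all features was -0.24. INTS11 was also called in the interaction (5.45 ± 1.11, adjusted p = 0.0385 by edgeR), the 1 such row of these lists, beside 1.8% of all features in either direction. That call held without 3 of the 8 libraries left out in turn. Of 11 tested rows at deubiquitinase positions, 0 passed between the microvesicles, 1 rose and 4 fell in control microvesicles against cells (15.7% and 20.8% of all features), and 1 fell in TRACE microvesicles against cells (4.22% of all features). Of 11 at ubiquitin shuttles and adaptors, 1 rose between the microvesicles, beside 4.76% of all features: UBAP2L, at its own GRCh38 position, by 3.48 ± 0.77 on the log2 scale (adjusted p = 0.0324 by edgeR), a call that held without 3 of the 8 libraries left out in turn. It held 0.381% and 0.275% of TRACE microvesicles II and III and 0.0235% and 0.0119% of control microvesicles I and II. The groups did not overlap, as for 23.1% of all features in this direction. In this list 3 of the 11 rows were called lower in control microvesicles against cells, beside 20.8% of all features. In TRACE microvesicles against cells 1 was called lower, beside 4.22% of all features. That row was SNORD59, with 29 to 90 counts in the cell libraries and 0 in every microvesicle library. The rows at the UCHL5 position are in both the proteasome and the deubiquitinase list.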

How the data were processed

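The deposited table gives raw read counts for each gene feature, made by the authors with featureCounts 1.6.4 on GENCODE 19 at strand setting 2, per the file headers. STAR was the aligner and hg19 the build, per the submitters' processing notes, with the version not given in the sources used here. SMART-Seq2 with Nextera does not mark strand, so reads of a row and of a gene antisense to it cannot be separated. The R1 and R2 columns of each library were added (16 count columns, 0 left out). Rows were matched to GRCh38 gene positions as numbers only, and no coordinate was converted.

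Members and lists were chosen with earlier results of these data known. Named features were the members, the 5 tested features most like each, the chromosome 1 proteasome rows, and ubiquitin rows that passed the test. One edgeR 4.0.16 model (quasi-likelihood, TMM, filterByExpr) held the 4 groups, and p-values were adjusted over 1113 features by the Benjamini-Hochberg method (threshold 0.05). Standard errors are the log2 fold change over the root of F. Cells and the more variable microvesicles shared 1 estimate of the spread (common coefficient of variation 0.665, residual degrees of freedom 4, prior 6.12). The steps were also run on simulated counts drawn with 1 common spread for all libraries. Those runs do not show how the test behaves where microvesicles vary more than cells. Alternatives were other scalings, no filter, DESeq2 1.42.0, limma 3.58.1 (voom), fewer libraries or columns, and the replicate block. Python 3.11.15 (pandas 2.3.3, scipy 1.17.1, numpy 2.4.6, matplotlib 3.10.9) and R 4.3.3 were used.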

Additional observations from a re-analysis of the deposited data

How the results depend on the processing

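No tested value of the 3 rows reversed under any alternative run. With all libraries kept, the calls gained were PI4KB between the microvesicles (3.07 with no filter, 3.23 with DESeq2) and POGZ there (2.83 by library size alone), and the 3 calls in control cultures held. Those 3 ended without any 1 cell library, except that with the same features kept they held without either TRACE cell library. Leaving out each library, including the alternatives added after seeing the data in which the features tested were kept, log2 fold changes between the microvesicles ran from 1.18 to 3.12 (POGZ), 1.08 to 3.0 (ZNF687) and 1.84 to 4.23 (PI4KB); in control cultures from -5.18 to -3.15, -5.10 to -3.38 and -5.90 to -4.19. Shares moved for POGZ without LINC01128 and TP53BP2 (0.674% and 0.20% in TRACE and control microvesicles). The other rows moved by less than 1 SD, though their control microvesicle means rose to 0.0751% (ZNF687) and 0.149% (PI4KB). Shares also moved for PI4KB in cells with R1 (1.84% and 2.03%) or R2 alone (1.36% and 1.66%). The cause was not tested.

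Between the microvesicles, 69 features were called, against 225 with no filter, 164 by DESeq2, 21 by voom, 0 with only the libraries compared, and 0 to 115 with a library left out. Within TRACE cultures 58 were called, against 25 by library size alone, 93, 147 and 0 with no filter, DESeq2 and only the libraries compared, and 0 to 123; within control cultures 407, against 32 to 416; in the interaction 20, against 10 by upper quartile, 61 with no filter, 76 by DESeq2 and 0 to 62. With 0 called between cells, all alternatives also gave 0.

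With the replicate block, microvesicles against cells in TRACE cultures called 76 features (58 without), in control cultures 374 (407) and in the interaction 21 (20), with no call of the 3 rows changed; paired libraries' deviations correlated at -0.0318 and 0.0215, so the check showed no shared deviations, although the series text ties microvesicles to the lysate of the same sample. TRACE and control cultures share 1 numeral, and no block was fitted between them. Totals of 34602 to 64025 in the 4 TRACE libraries and 44 to 84 counts on the rows of single microvesicle libraries limit the precision. The control libraries were all deeper (109099 to 479140), so depth and construct cannot be told apart.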
